A study of Mus musculus with 6 samples.

Results

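The genes described here are 10 genes of de novo lipogenesis, the making of fatty acids from glucose and acetate. They are the enzymes and carrier Slc25a1, Acly, Acss2, Acaca, Acacb, Fasn and Me1, the accessory protein gene Thrsp, and the transcription factors Srebf1 and Mlxipl. They were taken by name, as the probe sets that the platform annotation gives to 1 of these genes alone, which found all 10 genes in 22 of the 45037 probe sets tested. Dedifferentiated fat (DFAT) cells were set against mature adipocytes (AC) on 6 Affymetrix mouse genome expression arrays, 3 of each. AC were fat cells isolated from mouse fat tissue. DFAT cells were a proliferating line that was obtained by ceiling culture, in which floating fat cells lose their lipid and grow out, from adipocytes of GFP transgenic mice, and were collected at semiconfluence. No treatment or other allele is given for either group, and neither the GFP transgene for AC nor strain, age, fat depot or number of animals is given. The DFAT arrays may share 1 line, and nothing says that replicates were separate animals or cultures, so p-values here reflect array-to-array spread alone, which may be technical.

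In lipogenesis, citrate leaves the mitochondrion and is cleaved in the cytosol to acetyl-CoA, which is carboxylated to malonyl-CoA and built up to palmitate with NADPH as the reductant. Fat and liver cells turn the pathway on after feeding, when insulin acts through the sterol regulatory element binding protein SREBP-1, encoded by Srebf1, and glucose acts through the carbohydrate response element binding protein ChREBP, encoded by Mlxipl. Both factors bind the promoters of the enzyme genes, SREBP-1 often next to the factor NF-Y, which reads the letters CCAAT.

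The start regions of the 10 genes in RefSeq (GRCm38.p6) are described here by their letters alone. Whether these letters have a part in the array values was not tested. Bases 130 to 21 before the start are printed 5′ to 3′ along the gene for 6 genes with a CCAAT box in that stretch, and the capitals mark CCAAT on either strand, read as CCAAT or ATTGG. In Fasn the last pair of matches overlaps, on opposite strands.
Fasn, chr11:120824568-120824677, minus strand: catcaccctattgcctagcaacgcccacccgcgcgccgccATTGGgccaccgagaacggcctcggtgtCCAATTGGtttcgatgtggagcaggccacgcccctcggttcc
Acacb, chr5:114165388-114165497, plus strand: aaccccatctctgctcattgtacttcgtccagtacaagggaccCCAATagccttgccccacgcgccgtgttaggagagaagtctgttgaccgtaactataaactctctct
Acss2, chr2:155517913-155518022, plus strand: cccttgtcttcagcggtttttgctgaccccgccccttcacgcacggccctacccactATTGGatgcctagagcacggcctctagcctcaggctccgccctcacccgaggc
Thrsp, chr7:97417571-97417680, minus strand: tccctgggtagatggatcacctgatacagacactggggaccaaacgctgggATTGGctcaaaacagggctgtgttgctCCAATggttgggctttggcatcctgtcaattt
Slc25a1, chr16:17928240-17928349, minus strand: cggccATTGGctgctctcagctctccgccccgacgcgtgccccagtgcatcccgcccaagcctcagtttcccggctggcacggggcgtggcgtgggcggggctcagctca
Srebf1, chr11:60210492-60210601, minus strand, at 1 of its 3 starts: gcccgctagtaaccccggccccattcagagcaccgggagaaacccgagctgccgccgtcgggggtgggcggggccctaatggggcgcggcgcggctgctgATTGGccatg

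Over the whole windows, from 250 bases before to 50 after a start, the 10 genes have 14 windows, since Srebf1 has 3 starts and Me1 and Mlxipl have 2 each. CCAAT lay on either strand in 10 of the 14 windows, against 37.4% of the 32851 windows of all genes. Those 10 windows belong to 9 of the 10 genes, a count by gene to which the share by window does not apply. Acaca was the gene without CCAAT, and the matches of Acly, Me1 and Mlxipl lie outside the stretch printed. The GC box GGGCGG was in 7 of the 14 windows against 35.7% of all. The palindromic E-box CACGTG was in 2, of Slc25a1 and Mlxipl, against 7.15% of all. The sterol element TCACNCCAC was in 1 window, of Mlxipl, against 1.24% of all. The LXR half-site AGGTCA was in 2, of Acacb and Acly, against 16.3% of all, and TATAAA in 1, of Acacb, against 13.6%. All were searched on both strands and are descriptions of letters, not of binding, and windows of 1 gene are not independent.

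All 10 genes fell in DFAT cells. Each stands as its brightest probe set (by the mean of the 6 arrays), and every DFAT array lay below every AC array for all 10, where this was so for 32.5% of the 18193 genes measured. With a limit of 0.05 on limma's adjusted p, 10 were lower and 0 were higher, against 23.8% of all genes lower and 22.6% higher. A fall of at least 4-fold was seen for 9 of the 10, against 6.66% of all genes, and Srebf1 was the exception. Their median log2 difference, DFAT minus AC, was -3.34, or -2.93 with values under the background level set to it, where that of all genes was -0.10. Whether there were fewer cells with these transcripts or less transcript per cell cannot be told apart in such bulk RNA, and the values are relative to the total of each array.

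**Figure D1:**
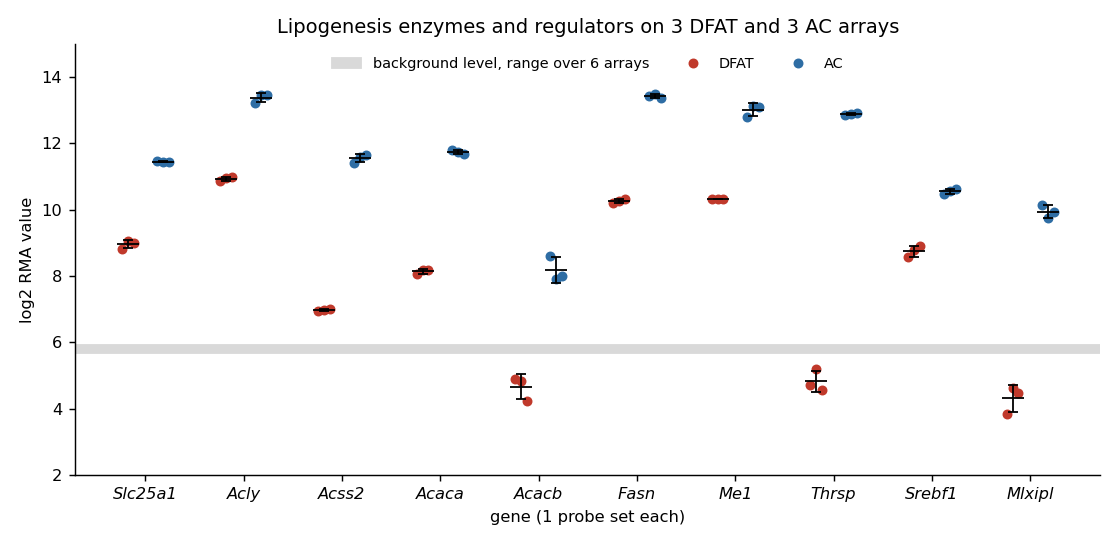
Log2 RMA values (vertical axis) of the 10 genes (horizontal axis), 1 probe set each, on the 3 DFAT arrays (red, left) and the 3 AC arrays (blue, right). Each point is an array, means and SDs are in black, and the grey band is the range of the arrays' background levels, 5.67 to 5.90. The groups do not overlap for any gene, and Acacb, Thrsp and Mlxipl lie under the band in DFAT cells.

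The values were RMA values on the log2 scale, and a fold size is 2 raised to the size of the difference. The level of a signal that these arrays cannot tell from none was taken, on each array, as the 95th percentile over 110 probe sets, whose 86 genes are known from the eye, other sense organs and sperm. It was 5.67 to 5.82 on the DFAT arrays and 5.68 to 5.90 on the AC arrays. A gene was at background level in a group when all 3 of its arrays were at or under it, which is no detection call. In DFAT cells 3 of the 10 were at background level and in AC 0 were, the same genes at the 90th and the 99th percentile.

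The adipocyte label of AC was borne out by Adipoq, Lep and Lipe, which encode adiponectin, leptin and hormone-sensitive lipase. Adipoq had 4.30, 3.76 and 3.93 in DFAT cells and 14.44, 14.40 and 14.34 in AC. Lep and Lipe averaged 3.82 and 4.29 in DFAT cells and 12.54 and 12.06 in AC, and all 3 genes were at background level in DFAT cells. Of 15 measured adipocyte markers, 15 were lower in DFAT cells, against 23.8% of all genes, and 9 were at background level there. Lpl and Fabp4 kept means of 12.31 and 11.55 in DFAT cells. The AC arrays also carried RNA of other cells, since 17 of 18 endothelial, 16 of 18 macrophage and 15 of 16 epithelial and mammary markers were not at background level there. Of all 18, 18 and 16 markers, 18, 15 and 14 were lower in DFAT cells, against 23.8% of all genes. Of those called lower, 1, endothelial Tal1, was at background level in both groups. In DFAT cells 4, 3 and 3 of the 18, 18 and 16 markers were not at background level. For the counts at background level, no share over all genes is given here.

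The 3 genes that supply cytosolic acetyl-CoA fell. Slc25a1, the mitochondrial citrate carrier, had log2 values of 8.83, 9.06 and 9.01 in DFAT cells and 11.48, 11.45 and 11.43 in AC. It was 5.62-fold lower in DFAT cells (log2 difference -2.49, 95% confidence interval -2.79 to -2.19, adjusted p = 2.94e-06 from limma). Acly, ATP citrate lyase, which cleaves the exported citrate, had 10.86, 10.95 and 10.97 in DFAT cells and 13.23, 13.45 and 13.46 in AC. Its difference of -2.45 (adjusted p = 3.66e-06 from limma) was close to that of the carrier, and both genes kept a strong signal in DFAT cells. Acss2 makes acetyl-CoA from acetate instead of citrate. It had 6.94, 6.98 and 6.99 in DFAT cells and 11.41, 11.58 and 11.66 in AC, a difference of -4.58 (interval -4.88 to -4.28, adjusted p = 1.72e-07 from limma), or 23.9-fold. Of the 3 genes of acetyl-CoA supply, the acetate enzyme thus had the largest fall, and its interval did not reach those of the others. The intervals of Slc25a1 and Acly overlapped.

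Both carboxylase genes fell as well. Acaca and Acacb encode the acetyl-CoA carboxylases ACC1, which feeds synthesis in the cytosol, and ACC2, which sits on the mitochondrial surface, where its malonyl-CoA restrains fatty acid oxidation. Acaca had log2 values of 8.05, 8.18 and 8.19 in DFAT cells and 11.79, 11.75 and 11.68 in AC, a difference of -3.60 (interval -3.89 to -3.31, adjusted p = 3.86e-07 from limma). Acacb had 4.90, 4.84 and 4.22 in DFAT cells and 8.61, 7.90 and 7.99 in AC, a difference of -3.51 (interval -4.10 to -2.93, adjusted p = 1.83e-05 from limma). Acaca stayed above background level in DFAT cells and Acacb did not, so the -3.51 of Acacb is not a measured size and only a bound can be given. With DFAT values set to the background level, Acacb was at least 5.31-fold lower (-2.41). Within arrays, the Acacb minus Acaca value changed by 0.09 between the groups (95% confidence interval -0.81 to 0.98, p = 0.9 in a two-sided exact permutation test, for which 3 against 3 arrays cannot give less than 0.1). With values under the background level set to it the change was 1.19, so these arrays do not settle whether the 2 carboxylase genes fell equally.

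Fasn, the fatty acid synthase that builds palmitate from malonyl-CoA, had 10.19, 10.26 and 10.34 in DFAT cells and 13.42, 13.48 and 13.37 in AC. It was 8.95-fold lower in DFAT cells (log2 difference -3.16, interval -3.45 to -2.88, adjusted p = 6.91e-07 from limma). Me1, the cytosolic malic enzyme that makes NADPH, had 10.31, 10.31 and 10.32 in DFAT cells and 12.79, 13.14 and 13.11 in AC, a difference of -2.70 (adjusted p = 3.37e-06 from limma). Both remained far above background level in DFAT cells, so for these enzymes the change was a fall and not a loss of signal.

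Thrsp encodes Spot 14, a small protein without enzyme activity of its own that is induced with the lipogenic enzymes by thyroid hormone and carbohydrate feeding. It had 4.71, 5.18 and 4.57 in DFAT cells, all at background level, and 12.87, 12.89 and 12.91 in AC. The log2 difference of -8.07 (interval -8.48 to -7.66, adjusted p = 7.16e-08 from limma) was the largest of the 10 genes. At this probe set, Thrsp was at least 140-fold lower with DFAT values set to the background level. Mid1ip1, its relative, which promotes assembly of ACC into filaments, had 9.97, 10.07 and 10.05 in DFAT cells and 9.50, 10.75 and 10.79 in AC. Its groups overlapped and its difference of -0.32 did not pass the test (adjusted p = 0.492 from limma). Mid1ip1 was low on the array of AC replicate 1 alone, without which the difference was -0.74 (adjusted p = 0.000969 from limma). Thrsp minus Mid1ip1 changed by -7.75 between the groups, with a 95% confidence interval of -9.00 to -6.51, and by -6.81 with values under the background level set to it. The exact permutation p was 0.1, the smallest that this test can give here (adjusted p = 0.133 over the 4 gene pairs compared).

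Of the regulators, Srebf1 had 8.57, 8.77 and 8.89 in DFAT cells and 10.48, 10.58 and 10.63 in AC. It was 3.53-fold lower in DFAT cells (log2 difference -1.82, interval -2.14 to -1.50, adjusted p = 2.56e-05 from limma), the smallest change of the 10 genes at their brightest probe sets. With the probe sets of a gene averaged, those at background level included, Acly (-1.32) and Acacb (-1.81) changed less and Acaca had -2.48. Mlxipl had 3.84, 4.61 and 4.48 in DFAT cells, all at background level, and 10.14, 9.76 and 9.93 in AC. Its difference was -5.63 (interval -6.15 to -5.12, adjusted p = 7.26e-07 from limma), and it was at least 18.2-fold lower with DFAT values set to the background level. Mlxipl was thus not above background level in DFAT cells, while Srebf1 kept a clear signal. Mlxipl minus Srebf1 changed by -3.82 between the groups (exact permutation p = 0.1, adjusted p = 0.133 over the 4 pairs), and by -2.37 with values under the background level set to it, which is the bound that the Mlxipl signal allows. Each factor has 1 probe set, and the annotation does not tell which of their starts it reads, so SREBP-1a and SREBP-1c, or ChREBP-alpha and ChREBP-beta, were not separated.

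Ordered by the size of the fall, the genes were Thrsp, Mlxipl, Acss2, Acaca, Acacb, Fasn, Me1, Slc25a1, Acly and Srebf1. Thrsp, Mlxipl and Acacb are at background level in DFAT cells, so the sizes of their falls depend on the floor of the array. With values under the background level set to it, Thrsp stayed first (-7.13). Mlxipl (-4.18) then came after Acss2 (-4.58), and Acacb (-2.41) after Acly (-2.45). Of neighbours in the order without that floor, the intervals of Acaca and Acacb, of Acacb and Fasn, of Fasn and Me1, of Me1 and Slc25a1 and of Slc25a1 and Acly overlapped. The interval of Srebf1 began at -2.14, where that of Acly ended. Overlap of intervals is given as a description, and other than for the pairs above no difference between genes was tested.

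Of the 22 probe sets of the 10 genes, 17 were lower in DFAT cells, 0 were higher and 5 did not pass the test, where 18.1% of all probe sets were lower and 20.3% higher. Those 5, of Acly, Acss2 and Acacb, were at background level in both groups and so carry no measure of a change. For Acly, the 3 probe sets with signal had differences of -2.45, -1.92 and -2.83. For Acss2 and Me1, the second probe set gave -4.55 and -2.27, close to the first. The second probe set of Acaca had 4.74, 4.95 and 4.86 in DFAT cells, all at background level, and 5.33, 7.07 and 6.23 in AC, a difference of -1.36 (adjusted p = 0.0237 from limma). Thrsp had the widest spread among its probe sets, with -8.07, -10.75 and -0.77. The probe set with -0.77 was above background level on 2 of the 3 DFAT arrays. At that probe set Thrsp was thus not at background level in DFAT cells, unlike at the probe sets with -8.07 and -10.75. Fasn, Slc25a1, Srebf1 and Mlxipl have 1 probe set each.

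**Figure D2:**
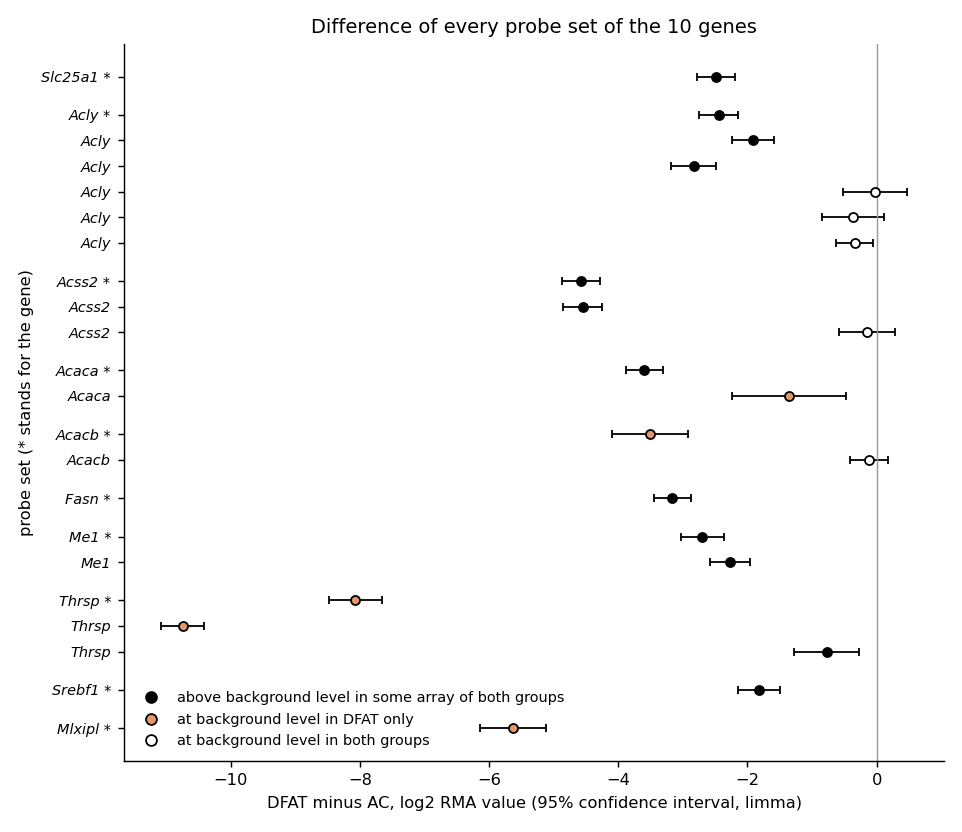
Difference between DFAT cells and AC on the log2 scale (horizontal axis) with its 95% confidence interval, for each of the 22 probe sets of the 10 genes (vertical axis), where a star marks the probe set that stands for the gene. All 17 probe sets with signal in at least 1 group lie below 0, orange points are at background level in DFAT cells alone, and the 5 open points are at background level in both groups.

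The mean log2 value of the 10 genes was 7.72, 7.91 and 7.80 on the DFAT arrays and 11.62, 11.60 and 11.62 on the AC arrays. Single genes spread more within a group, by up to 0.78 for Mlxipl, 0.68 for Acacb and 0.61 for Thrsp in DFAT cells, all at background level, and by up to 0.72 for Acacb in AC. The array of AC replicate 1 stands apart from the other AC arrays over all probe sets, with a Pearson correlation of 0.969 to 0.971 with them, where they had 0.991 with each other. Its endothelial markers averaged 9.43 against 7.65 and 7.58 on the other AC arrays, its epithelial and mammary markers 9.21 against 8.55 and 8.65, and its macrophage markers 6.34 against 8.003 and 8.03. Of the 10 lipogenesis genes, Acacb was higher on that array by 0.67 and Me1 lower by 0.34 (Mlxipl was higher by 0.29, Acly lower by 0.23 and Acss2 lower by 0.20) than AC replicates 2 and 3 on average, and the rest lay within 0.12 of that average. Without it, all 10 genes were still lower in DFAT cells, by 1.86 to 8.08 on the log2 scale. The part that RNA of mammary epithelium, itself a lipogenic tissue, has in the AC values was not tested. Its markers Csn3, Epcam and Krt18, named after their values were seen, lay at background level in DFAT cells. They had means of 12.03, 10.18 and 11.25 in AC, while the milk protein gene Wap was at background level in both groups. Of all 16 epithelial and mammary markers, 13 lay at background level on the DFAT arrays. Krt19 kept its signal, with 9.65, 9.83 and 9.84 in DFAT cells and a mean of 9.74 in AC. Its difference of 0.03 did not pass the test (adjusted p = 0.958 from limma). Cldn3 and Krt7 were lower in DFAT cells, but Cldn3 was above background level on 3 DFAT arrays and Krt7 on 1.

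**Figure D3:**
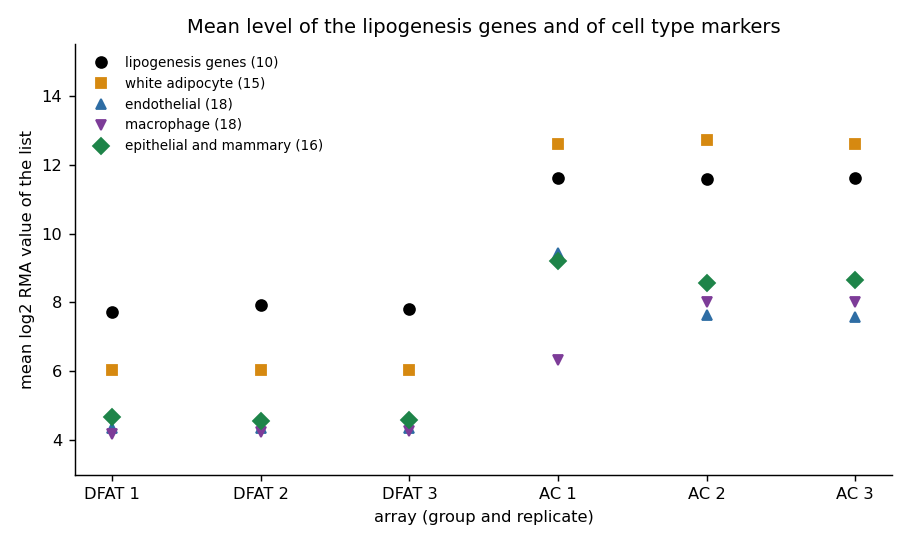
Mean log2 RMA value (vertical axis) of the 10 lipogenesis genes and of 4 lists of cell type markers on each of the 6 arrays (horizontal axis), with the number of genes in brackets. The lipogenesis genes stay between 11.60 and 11.62 on the AC arrays, where the endothelial and macrophage markers differ by more than 1 between AC replicate 1 and the others.

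In the control of SREBP, its precursors are escorted by Scap, cut by 2 Golgi proteases and held back by the Insig proteins. Of 9 measured genes of this machinery, 4 rose in DFAT cells, 2 fell and 3 did not pass the test, with a median difference of 0.22. Over all genes, 22.6% were higher and 23.8% lower, the background for each list that follows, and the fallen share of this list is near it. Srebf2, the paralog that drives cholesterol synthesis, had 9.01, 9.21 and 9.16 in DFAT cells and 6.48, 7.14 and 7.39 in AC, a difference of 2.12 and thus opposite to that of Srebf1. Mbtps2, the second of the proteases, rose by 1.47 on the log2 scale (adjusted p = 0.000206 from limma). Insig1 and Insig2 fell by 1.57 and 0.98 (adjusted p of 0.00126 and 0.00467 from limma), though Insig2 did not pass when the hybridization controls were used for centring (-0.52, adjusted p = 0.237 from limma). With centring on the reference genes, the list had a median of -0.12.

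Of 9 measured partners of ChREBP and of the LXR receptors, 5 fell in DFAT cells, 0 rose and 4 did not pass the test, against 23.8% lower and 22.6% higher over all genes. Nr1h3, which encodes LXR-alpha, an activator of Srebf1, had 5.55, 5.88 and 5.84 in DFAT cells and 8.72, 8.76 and 8.66 in AC, a difference of -2.96 (adjusted p = 1.84e-06 from limma). The coactivators Ppargc1b and Ncoa1 fell by 1.53 and 1.16 (adjusted p of 0.000139 and 0.000265 from limma). Of the 3 probe sets of Ncoa1, 1 did not pass the test (-0.28). Mlxip, the sister of Mlxipl that is known from muscle, had 7.07, 7.21 and 7.27 in DFAT cells and 8.23, 7.42 and 7.60 in AC and did not pass the test (-0.57, adjusted p = 0.0722 from limma), though it did without AC replicate 2 (-0.73, adjusted p = 0.0377 from limma), with the floor at the background level (adjusted p = 0.0463) and with centring on the reference genes (-0.91, adjusted p = 0.0141). Mlxipl minus Mlxip changed by -5.07 (exact permutation p = 0.1, adjusted p = 0.133 over the 4 pairs), and by -3.62 with values under the background level set to it. Centred on the hybridization controls, 2 of the 9 were lower and 1 was higher, and Ncoa1 did not pass the test (-0.69, adjusted p = 0.0527 from limma). Without AC replicate 1, 5 were lower and 1 was higher.

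Of 11 measured genes that control ACC, 3 fell and 2 rose, while 6 did not pass, with a median of 0.02. Both shares are near those of all genes, 23.8% lower and 22.6% higher, and are no result about the list. The catalytic subunits of AMPK, the kinase that inhibits both carboxylases, moved in opposite ways at the probe sets that stand for them. Prkaa2 had 3.65, 3.52 and 3.61 in DFAT cells, at background level, and 6.996, 7.14 and 7.22 in AC (-3.53, adjusted p = 5.17e-07 from limma, and -1.36 with values under the background level set to it). Prkaa1 had 8.23, 7.92 and 8.26 in DFAT cells and 6.46, 7.42 and 7.31 in AC (1.07, adjusted p = 0.0124 from limma). Of the 3 probe sets of Prkaa2, 1 did not pass the test (-0.41), and Prkaa1 has 1 probe set. Hlcs, which attaches the biotin that carboxylases need, fell to background level (-2.01, adjusted p = 3.73e-05 from limma, and -0.86 with that floor). Trib3, a pseudokinase that directs ACC to degradation in mouse fat, rose by 2.12 on the log2 scale (adjusted p = 1.73e-05 from limma). Without AC replicate 1, 5 of the list were lower, and without DFAT replicate 1 or 3, Prkaa1 did not pass the test (adjusted p of 0.0532 and 0.0516 from limma), which left 1 of the list higher.

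**Figure D4:**
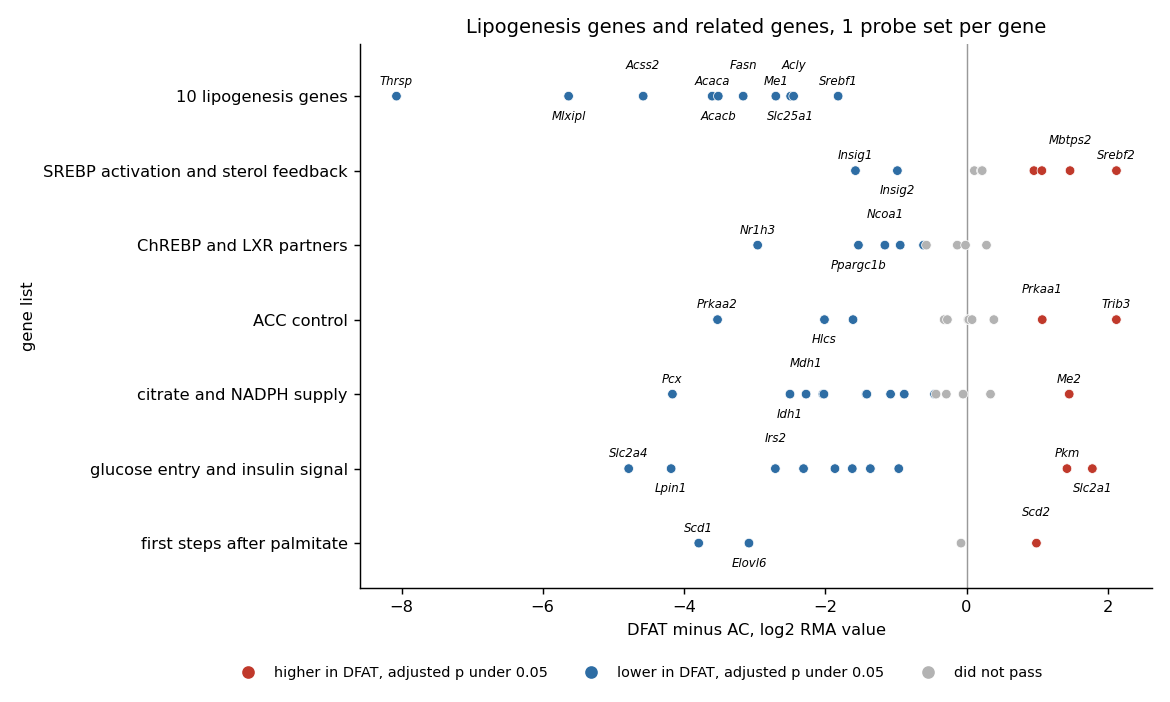
Difference between DFAT cells and AC on the log2 scale (horizontal axis) for the 10 lipogenesis genes and 6 lists of related genes (vertical axis), 1 point per gene, with some genes named. Red marks genes called higher in DFAT cells, blue those called lower, and grey points did not pass. All 10 lipogenesis genes are blue, while the genes of SREBP activation and of ACC control lie on both sides of 0.

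Of 15 measured genes of citrate and NADPH supply, 10 fell and 1 rose, while 4 did not pass, with a median of -1.07, against 23.8% lower and 22.6% higher over all genes. Pcx, pyruvate carboxylase, which refills citrate, had 7.94, 8.13 and 8.13 in DFAT cells and 12.06, 12.31 and 12.32 in AC (-4.16, adjusted p = 3.5e-07 from limma). Idh1 and Mdh1, the cytosolic isocitrate and malate dehydrogenases, fell by 2.50 and 2.27 on the log2 scale, though 1 of the 5 probe sets of Mdh1 was higher. Me2, the mitochondrial malic enzyme, rose by 1.45 (adjusted p = 0.00319 from limma), where the cytosolic Me1 fell. Of the 4 probe sets of Me2, 2 did not pass the test (0.34 and 0.28). The citrate synthase Cs, named after its value was seen, did not pass the test (-0.29). Centred on the hybridization controls, 7 of the list were lower and 2 higher.

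Of 10 genes of glucose entry and insulin signalling, 8 fell and 2 rose, against 23.8% lower and 22.6% higher over all genes. Hk2, a hexokinase (-2.31, adjusted p = 0.0276 from limma), did not pass when any array other than AC replicate 1 was left out (adjusted p of 0.0735 to 0.0977). Centred on the hybridization controls, Hk2 and Irs1 did not pass (adjusted p of 0.0577 and 0.117), which left 6 lower. The insulin-responsive glucose transporter Slc2a4 had 5.31, 5.24 and 4.89 in DFAT cells, at background level, and 9.88, 9.97 and 9.93 in AC, a difference of -4.78, or -4.17 with values under the background level set to it (adjusted p = 2.74e-07 from limma as deposited). The basal transporter Slc2a1 had 10.91, 10.83 and 10.98 in DFAT cells and 8.69, 9.43 and 9.25 in AC, a difference of 1.78 (adjusted p = 0.00023 from limma). Pkm, the pyruvate kinase of most tissues, also rose, by 1.42. Lpin1 and Irs2 fell by 4.18 and 2.71 (adjusted p of 6.43e-07 and 0.000403 from limma). Lpin1 encodes a phosphatidate phosphatase and coregulator, and Irs2 encodes an adaptor of the insulin receptor. Of 4 measured fatty acid desaturases and elongases, Elovl5 did not pass the test (-0.08). Scd1, a desaturase, and Elovl6, an elongase, fell by 3.79 and 3.08, while the desaturase Scd2 had 12.33, 12.46 and 12.44 in DFAT cells and 10.90, 11.69 and 11.65 in AC and rose by 0.99 (adjusted p = 0.00818 from limma). Under Student's t-test with adjusted p-values in place of limma, Scd2 did not pass. Of the 3 probe sets of Elovl6, 1 did not pass the limma test (-0.07).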

How the data were processed

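The log2 values deposited by the authors were made with RMA in the R package affy (versions not given in the sources used here), which corrects background, normalizes between arrays and gives 1 value for each probe set. Scanner values were not used. Groups come from the sample titles. After 64 control probe sets were left out, 45037 were tested by limma 3.58.1 under R 4.3.3 (eBayes after lmFit, two-sided, no filter, Benjamini-Hochberg over all probe sets, threshold 0.05). The number of arrays limits the precision. The platform annotation gave 34945 probe sets 1 gene symbol, 932 several and 9160 none. The fit was tested on simulated data.

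The 10 genes, the related lists and the tests were chosen with earlier results of these data known. Of each related list, the 3 genes with the largest called difference between groups that do not overlap were named, with up to 3 called against the list's majority. The floor at the background level for gene pairs was chosen after seeing the data. Other members are named as examples, as pairs or as exceptions. List members without a probe set of their own, such as Nr1h2 and G6pdx, were left out. Promoter windows and motifs were read from the RefSeq table of GRCm38.p6 in Python 3.11.15 (numpy 2.4.6, pandas 2.3.3, matplotlib 3.10.9 for figures). Reference genes for centring were 13 genes, and hybridization controls 18 probe sets. Of those 13 genes, 7 were themselves called higher in DFAT cells and 2 lower, against 22.6% and 23.8% of all genes. Their median difference was 0.47, so they were not unchanged between the groups, and centring on them moves other genes down in DFAT cells.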

Additional observations from a re-analysis of the deposited data

How the results depend on the processing

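All 10 genes were lower in DFAT cells under every alternative that could measure them: quantile normalization again, 3 ways of centring, a floor set at the background level, a filter on dim probe sets, trend and robust variances, array weights, the replicate block, Student's t-test with adjusted p-values, the mean over probe sets and leaving out each array. The paper names Student's t-test among its general statistics, and for the arrays it gives a fold rule and no t-test. The count of genes called lower was 10 without any of the 6 arrays. Without probe sets that end in _a_at, _s_at or _x_at, Srebf1 and Mlxipl have none, and the other 8 genes were lower. By the methods' 4-fold rule 9 were lower. Of all probe sets, 8133 were lower and 9152 higher. The lower count was 19250 with arrays centred on the reference genes, 3405 on the hybridization controls, 5307 with the floor and 5249 of the 19595 probe sets left without dim ones (26.8%, against 18.1% of all). With probe sets averaged by gene, 5194 of 28285 genes and unnamed probe sets were higher (18.4%, against 20.3% of all). The fold rule gave 2005 lower and 1739 higher. The share of calls that were lower was 47.1% as deposited, 37.0% with arrays centred on their medians, 75.0% on the reference genes and 21.5% on the hybridization controls, with a median difference of 0.07, -0.40 and 0.40 against -0.06 as deposited. Leaving out 1 array gave 5881 to 10324 lower and 7279 to 10674 higher. Deviations of same-numbered arrays from their group means correlated at -0.03 to 0.01. The DFAT arrays differed little from each other (Pearson correlation of 0.995 to 0.996), so this cannot tell whether replicate numbers pair the samples. With the replicate block, 7384 probe sets were lower and 8639 higher, with all 10 genes lower.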
